A study of Homo sapiens with 9 samples.

Results

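The peaks of RNA polymerase II after DHX9 knockdown were set against those after U2AF1 knockdown in HEK293T, an established human embryonic kidney cell line. Polymerase was mapped by chromatin immunoprecipitation and sequencing (ChIP-seq) with an antibody to POLR2A, its largest subunit. Each knockdown had 2 ChIP replicates and 1 input, and the labels of both replicates name the same deposited peak list. They do not say whether it was called on 1 replicate or on both. The third condition of the series, cells labelled wildtype with a control shRNA, was left out, so no value below says which knockdown differs from untreated cells. The hairpins, the time after transduction and the depth of the libraries are not given in the sources used here. The members were the 4443 peaks of the DHX9 knockdown list and the 1730 peaks of the U2AF1 knockdown list, 6173 of the 8930 peaks in the 3 deposited lists. A peak was shared when it had at least 1 bp in common with a peak of the other list. Pairs, 1159 in number, were peaks that overlapped each other and no further peak. As there is 1 list for each condition, no difference was tested against the spread between replicates, and no p-value is given. Intervals are 95% intervals (Wilson for shares, Newcombe for differences of shares, order statistics for medians) and cover counting error alone. Of the 8 genes taken as markers of HEK293T, VIM had a peak at its start in both lists, GAL in the U2AF1 knockdown list and 6 in neither. Of 10 markers of blood, liver, muscle, glia, islet and endothelium 0 had one in either list. Among all protein-coding genes 22.2% had one, so these few counts do not identify the cells.

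RNA polymerase II starts at promoters and commonly halts a short way into the gene before it is released into elongation, so its ChIP signal piles up near transcription starts. U2AF1 is the small subunit of the factor that recognises the AG at the 3′ end of introns and helps to bring the U2 particle to the pre-mRNA. DHX9 is a helicase that unwinds RNA structures and hybrids of RNA with DNA. R-loops, in which nascent RNA pairs with the template strand and leaves the other strand single, form at many GC-rich promoters, and the series concerns their link to U2AF1.

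The strongest peaks common to both lists lay on a few loci, and the sequences under their summits are shown first because the summits of both lists lay at most 48 bp apart there. Each run is GRCh38 sequence of the gene's strand, 5′ to 3′, and the capitals mark the stretch from the summit of one list to that of the other. The windows are chrX:78104069-78104165 upstream of the glycolytic gene PGK1, chr14:34546909-34547037 and chr1:145281325-145281415 just past the U1 small nuclear RNA genes RNU1-27P and RNVU1-14 (plus strand), and chr17:19063782-19063868 in the U3 small nucleolar RNA gene SNORD3B-2 (minus strand).
PGK1: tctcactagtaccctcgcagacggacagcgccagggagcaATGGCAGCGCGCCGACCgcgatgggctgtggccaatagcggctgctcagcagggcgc
RNU1-27P: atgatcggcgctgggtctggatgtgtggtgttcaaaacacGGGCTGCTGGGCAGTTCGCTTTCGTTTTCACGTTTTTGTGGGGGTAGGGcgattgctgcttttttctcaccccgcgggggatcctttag
RNVU1-14: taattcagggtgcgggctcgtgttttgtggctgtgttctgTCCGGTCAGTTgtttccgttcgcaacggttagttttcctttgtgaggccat
SNORD3B-2: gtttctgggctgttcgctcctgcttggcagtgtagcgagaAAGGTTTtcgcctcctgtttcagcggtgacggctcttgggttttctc
At PGK1 the peak had the same edges in both lists, 78103795 to 78104352, with a fold enrichment of 111.8 after DHX9 knockdown and 111.9 after U2AF1 knockdown. Fold enrichment is the authors' ratio of ChIP signal to background for each peak, and it is used here to rank peaks within a list. RNVU1-14 ranked 4 of 4443 and 6 of 1730, RNU1-27P 8 and 3, and SNORD3B-2 21 and 4. The processed pseudogene ENSG00000259397 (chromosome 15) ranked 2 and 1, with summits 6 bp apart. ENSG00000270022, a long noncoding RNA gene with the same start as the U12 gene RNU12 and beside POLDIP3, ranked 11 and 8. Its peak is the one counted for RNU12 below. U1, U3 and pseudogene loci have nearly identical copies, so the copy from which their reads came is uncertain. At PGK1 the origin of the reads was not tested. The next highest glycolytic gene, TPI1, had fold enrichments of 12.9 and 11.03.

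Shared peaks made up most of the short list and a minority of the long one. Of the U2AF1 knockdown peaks 69.1% (66.9 to 71.2, 1195 of 1730) were overlapped after DHX9 knockdown, and of the DHX9 knockdown peaks 26.8% (25.5 to 28.1, 1190 of 4443) were overlapped after U2AF1 knockdown. The lists differed in length by a factor of 2.57, which bears on both shares. With the DHX9 knockdown list cut to its 1730 most significant peaks the shares were 45.03% and 44.3%. The U2AF1 knockdown list stayed whole in this setting, called lists of equal length below. Weak peaks were thus removed from the DHX9 knockdown list alone. Few unshared peaks were near misses: 2.27% of those in the DHX9 knockdown list and 8.97% of those in the U2AF1 knockdown list lay within 1000 bp of a peak in the other list. Of the shared peaks, 31 and 36 could not be paired one to one, mostly at 5S ribosomal RNA genes, histone genes and repeated or unannotated sequence.

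Overlap went with strength within each list, except at the bottom. Among the 173 strongest U2AF1 knockdown peaks by fold enrichment 96.5% (92.6 to 98.4) were shared, against 45.7% (38.4 to 53.1) in the second lowest decile. Among the 444 strongest DHX9 knockdown peaks 68.9% (64.5 to 73.0) were shared, against 11.3% (8.65 to 14.5) in the second lowest decile. In both lists the lowest decile stood above the second, at 57.2% and 31.7%. Those weakest peaks were placed differently from the others: 60.6% of summits in the lowest DHX9 knockdown decile and 25.6% in the lowest U2AF1 knockdown decile lay at a start site, against 96.8% and 96.4% in the highest. Shared peaks were also wider, with median widths of 417 bp against 297 bp for unshared peaks after DHX9 knockdown and 311 bp against 249 bp after U2AF1 knockdown.

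**Figure D1:**
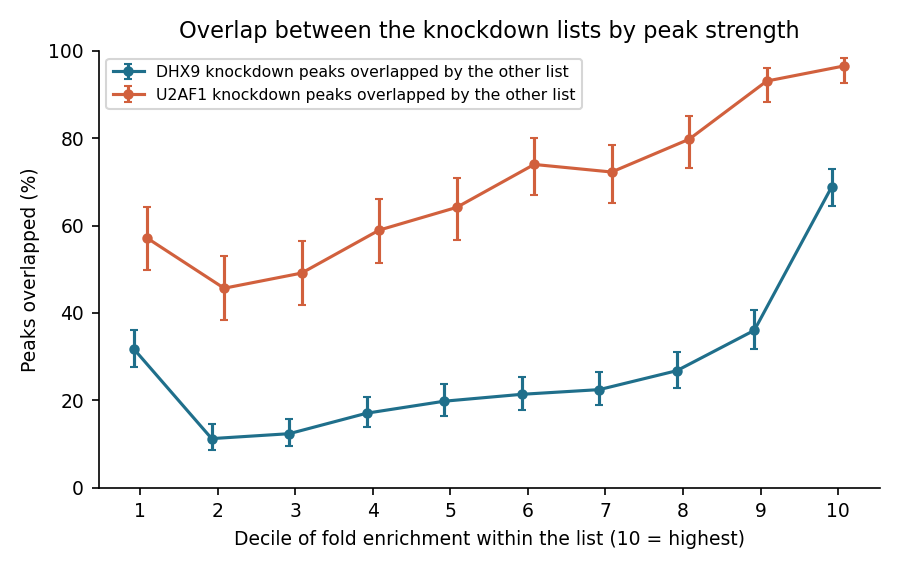
Share of peaks overlapped by the other knockdown list (percent, y axis) in each decile of fold enrichment within a list (x axis, 10 is the highest), with 95% Wilson intervals as bars. Both lines dip at decile 2 and are highest at decile 10, at 68.9% for DHX9 knockdown peaks and 96.5% for U2AF1 knockdown peaks.

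The peaks that the lists did not share differed in where they lay. Summits no more than 1000 bp from the start of any transcript in GENCODE version 44 counted as start site peaks, those farther along inside a gene as gene body peaks, and the rest as outside genes. Peaks on sequences without annotation were left out of these shares (69 shared and 58 unshared after DHX9 knockdown, 70 and 30 after U2AF1 knockdown). Of unshared DHX9 knockdown peaks 91.8% (2932 of 3195) lay at start sites, close to the 90.2% of shared ones (difference -1.58 points, -3.67 to 0.313 for shared minus unshared). Of unshared U2AF1 knockdown peaks 54.1% did (49.7 to 58.4, 273 of 505), against 90.6% of shared ones (difference 36.5 points, 31.8 to 41.2). Gene bodies held 21.4% of unshared U2AF1 knockdown peaks (18.03 to 25.2, 108 of 505) and 4.26% of unshared DHX9 knockdown peaks, and 24.6% and 3.97% lay outside genes. Introns held 91 of the 108 U2AF1 knockdown gene body peaks and 115 of the 136 DHX9 knockdown ones. Unshared gene body peaks were weak in both lists, with a median −log10 q (the authors' significance after correction) of 3.06 and 3.13. When a −log10 q of at least 5 was asked of both lists, the gene body share of unshared U2AF1 knockdown peaks was 13.03% and the start site share 64.8%. The corresponding shares of unshared DHX9 knockdown peaks were 1.94% and 95.3%.

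**Figure D2:**
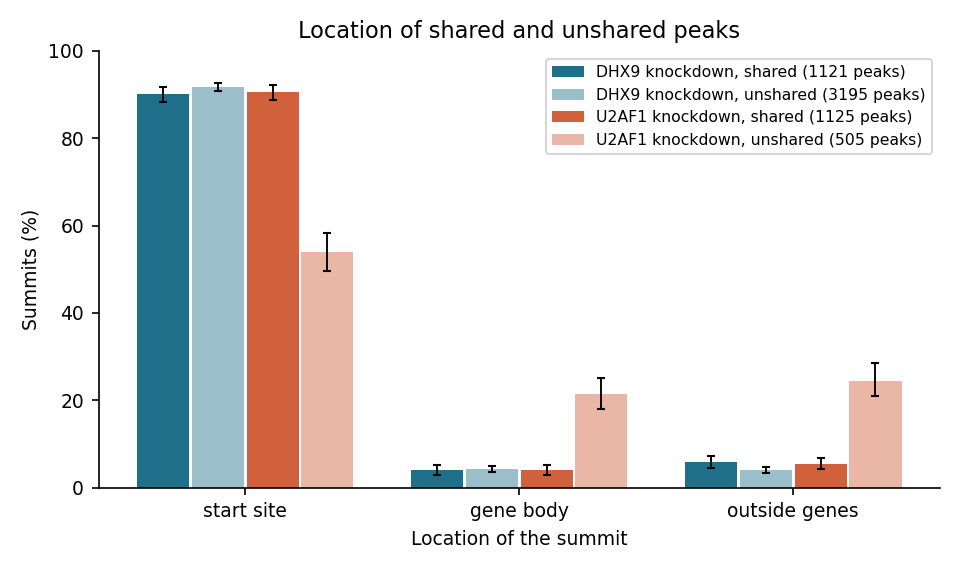
Percent of summits (y axis) at start sites, in gene bodies and outside genes (x axis) for shared and unshared peaks of each knockdown list, with 95% Wilson intervals. The unshared U2AF1 knockdown peaks stand apart, with 54.1% at start sites against 90.2% to 91.8% in the other 3 sets.

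Many of the unshared U2AF1 knockdown peaks outside genes lay far from any gene on repeated sequence. More than 100 kb from any annotated gene start lay 63 of the 505 unshared U2AF1 knockdown peaks (12.5%, 9.87 to 15.6). The same held for 19 of 3195 unshared DHX9 knockdown peaks (0.595%), and for 12 shared peaks in each list. Around 51 of the 63 summits the sequence repeated itself with at least 50% identity at the length of the monomer or the dimer (340 bp) of alpha satellite, the tandem repeat of human centromeres. It did so around 13 of the 19 summits, and around 8 of the 12 in each shared set. At any distance from a gene, 67 unshared U2AF1 knockdown peaks (13.3%) away from start sites lay on repeats of this kind, 18 of them on chromosome 1 and 13 on chromosome 19. So did 43 unshared DHX9 knockdown peaks (1.35%), and 26 shared DHX9 and 25 shared U2AF1 knockdown peaks. Without the 67 of the U2AF1 knockdown list, 62.3% (57.7 to 66.7) of the remaining unshared U2AF1 knockdown peaks lay at start sites and 22.8% in gene bodies. The 2 summit windows with the highest self-identity on those chromosomes are given below to show the repeat, with capitals for bases equal to the base 340 bp upstream (133 and 146 of 150), on the plus strand of GRCh38 at chr1:123305911-123306060 and chr19:27028792-27028941.
Chromosome 1: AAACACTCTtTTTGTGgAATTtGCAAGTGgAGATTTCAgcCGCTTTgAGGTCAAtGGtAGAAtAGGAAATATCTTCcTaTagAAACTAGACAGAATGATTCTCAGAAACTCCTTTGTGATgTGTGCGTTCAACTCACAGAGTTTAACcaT
Chromosome 19: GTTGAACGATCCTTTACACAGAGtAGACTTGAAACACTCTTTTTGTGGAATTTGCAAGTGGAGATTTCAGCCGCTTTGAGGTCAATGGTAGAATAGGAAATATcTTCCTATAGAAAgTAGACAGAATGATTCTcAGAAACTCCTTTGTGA
Both peaks were low in the U2AF1 knockdown list, with fold enrichments of 3.34 and 3.84. Reads from such arrays map to many places, and whether mapping or background differed between the libraries was not tested. The measure of self-identity was chosen after the values were seen. It is not specific to alpha satellite: telomere repeats on chromosome 5, under a shared DHX9 knockdown peak, also met it.

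At start sites, protein-coding genes were the largest class in all sets, and small or structured RNA genes were concentrated in the shared one. They made up 8.51% of shared DHX9 knockdown start peaks (86 of 1011) and 0.375% of unshared ones (11 of 2932), and 9.32% and 2.56% in the U2AF1 knockdown list. Long noncoding RNA genes, by contrast, were at 10.2% and 10.6% after DHX9 knockdown and 9.13% and 9.52% after U2AF1 knockdown. Summits at protein-coding starts lay just inside the gene, at a median of 27 bp (shared) and 23 bp (unshared) downstream of the nearest start after DHX9 knockdown, and at 35 bp and 48.5 bp after U2AF1 knockdown.

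The small nuclear RNAs, apart from U7, form the cores of the spliceosome, and U3, U8 and U13 guide the processing of ribosomal RNA. Their genes are short, many copies are pseudogenes, and most of the copies with a peak had one in both lists. Of 146 U1 genes and copies 24 had a start peak in both lists, 2 after DHX9 knockdown alone and 0 after U2AF1 knockdown alone. Over all 2843 small nuclear and nucleolar RNA genes the corresponding percentages were 2.53, 0.528 and 0.0703. Of 393 genes and copies for U2, U4, U5, U7, U11, U12 and U4ATAC, 27 had a peak in both, 1 after DHX9 knockdown alone and 1 after U2AF1 knockdown alone. At that last gene, RNU4-1, the peak was itself overlapped by a DHX9 knockdown peak assigned to the neighbouring RNU4-2. Of 113 annotated entries for U3, U8 and U13 genes 6 had a peak in both lists, at 5 loci because SNORD3D is annotated by 2 overlapping entries, and SNORD13, the U13 gene, had one after DHX9 knockdown alone, at rank 70. RNU1-4 had fold enrichments of 45.6 and 12.8 (ranks 6 and 41) after DHX9 and U2AF1 knockdown, and RNVU1-15 had 45.5 and 20.1 (ranks 7 and 12). Over all 1159 pairs 57.8% stood at a higher percentile after DHX9 knockdown, and 48.6% did when paired peaks alone were ranked. Of the 23 U1 pairs 22 and 16 did. Their summits lay past the end of the U1 gene in 23 of 24 cases in each list, at a median of 307.5 bp and 286.5 bp downstream of the start of a gene of 164 bp. In the genes for U2, U4, U5, U7 and the minor small nuclear RNAs 26 of 27 and 25 of 27 summits lay past the gene's end. The windows for RNU1-27P and RNVU1-14 above are of this kind.

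Ranks of the same locus agreed loosely between the lists. Across the 1159 pairs, Spearman's rho of the within-list percentile (100 is the highest fold enrichment) was 0.643. It was 0.400 over 808 pairs at protein-coding starts and 0.604 over 102 pairs at long noncoding RNA starts. Over 76 pairs at small or structured RNA starts it was 0.865, where pairs sat in 2 clusters, one near the top with the small nuclear RNAs and one near the bottom. These are descriptions of loci that share 2 sets of libraries, and without small RNA genes, pseudogenes and unannotated sequence rho was 0.461. The median percentile difference, DHX9 minus U2AF1 knockdown, was 2.19 points (1.01 to 3.59), and -2.23 (-3.30 to -1.27) with lists of equal length. Ranking the paired peaks among themselves centres the differences near 0 by construction (median -0.0864, -0.777 to 0.345). A difference of at least 25 points in favour of DHX9 knockdown was seen in 231 pairs (19.9 percent) and in favour of U2AF1 knockdown in 128 (11 percent). Ranked among pairs the shares were 14.8% and 13.9%, and with lists of equal length the counts were 86 and 169. Pairs in gene bodies had a median difference of -6.16 points (n = 42, -7.76 to -3.87), and of -2.29 points (-4.06 to -0.259) when ranked among pairs. The median was also negative outside genes (-2.30, -3.64 to -0.885) and on unannotated sequence (-3.17, -5.37 to -1.43). Ranked among pairs these were 0 (-0.950 to 1.17) and -0.345 (-2.16 to 0.259).

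**Figure D3:**
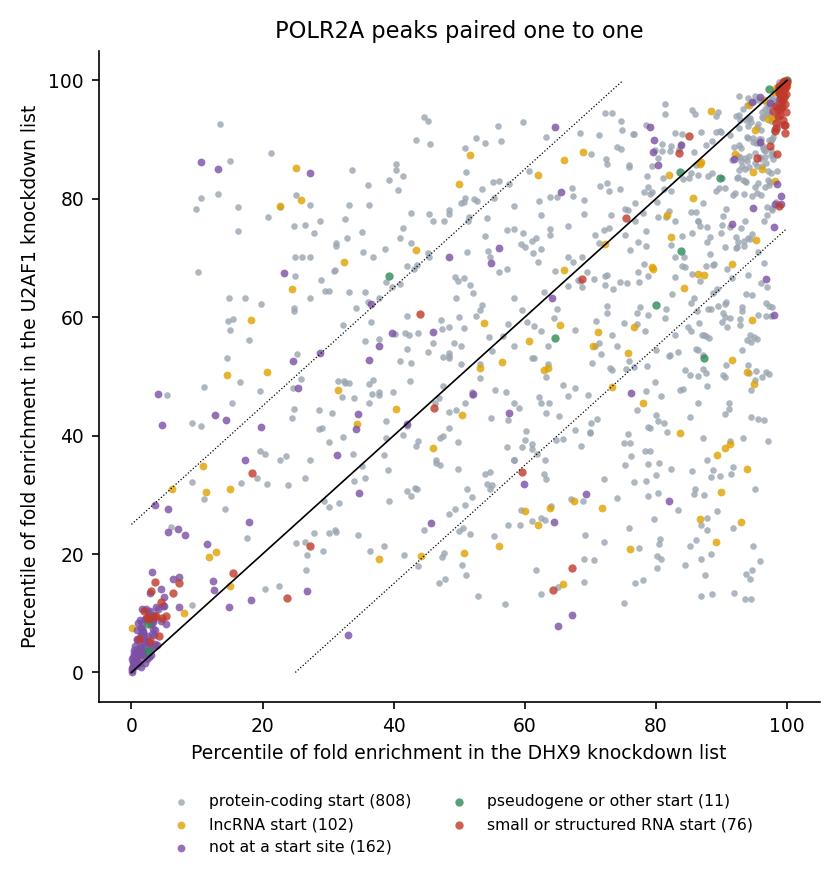
Percentile of fold enrichment of each of the 1159 paired peaks in the DHX9 knockdown list (x axis) and in the U2AF1 knockdown list (y axis), coloured by location and gene class. The solid line marks equal percentiles and the dotted lines 25 points; small or structured RNA starts gather in the upper right corner, with a second group in the lower left.

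Some genes held a strong peak in one list and a weak one in the other. RBM39, a splicing factor related to U2AF2, had a fold enrichment of 8.42 after U2AF1 knockdown (rank 129, percentile 92.6) and 3.92 after DHX9 knockdown (rank 3840, percentile 13.6). This was the widest gap in that direction among 722 pairs with a −log10 q of at least 5 in both lists. UQCRC1, a subunit of respiratory complex III, stood at percentiles 87.7 and 21.3, and RPS27, a ribosomal protein gene, at 84.9 and 33.6. ALG1, a mannosyltransferase of N-glycosylation, stood at 76.9 and 20.8, MRPL17, of the mitochondrial ribosome, at 80.7 and 25.1, and ENSG00000262049, beside the start of MRPL12, at 85.1 and 25.1. In the other direction TMEM242, which encodes a membrane protein, stood at percentile 88.4 after DHX9 knockdown (fold enrichment 7.75) and 20.1 after U2AF1 knockdown (3.65). RPL3, of the large ribosomal subunit, stood at 84.4 and 18.2, CCDC80 at 97.1 and 39.0, and INTS6, a subunit of the Integrator complex that cuts small nuclear RNA transcripts, at 91.5 and 33.5. The lncRNA ENSG00000290823 stood at 89.9 and 30.5. The last, nearest to DDX11L16 at the end of chromosome X, lay on telomere repeats. Ranked by −log10 p, these 6 gaps in favour of U2AF1 knockdown kept their sign and were smaller, at -51.3 points for RBM39, -22.1 for UQCRC1, -27.3 for ALG1, -27.5 for MRPL17, -15.9 for RPS27 and -42.6 for ENSG00000262049. UQCRC1 (-82.6) and RPS27 (-78.6) were still paired with lists of equal length, whereas RBM39, ALG1, MRPL17 and ENSG00000262049 formed no pair. RPL3 was at 44.01 points when ranked so and 41.7 with lists of equal length. At DDX11L16 the gap of 57.6 points was 27.1 and 9.66. At the 808 protein-coding starts, pairs with the higher rank in either list had similar sequence: the median GC content of the 200 bp around the summits was 74% for the 193 higher after DHX9 knockdown and 73.5% for the 104 higher after U2AF1 knockdown.

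Paired peaks were wider after DHX9 knockdown. The median width was 415 bp against 307 bp, the DHX9 knockdown peak was the wider in 860 of 1159 pairs, and the median difference was 73 bp (66 to 85). The excess went with the caller's significance: it was 12 bp in the 345 pairs where −log10 q was higher after U2AF1 knockdown and 104 bp in the 814 where it was higher after DHX9 knockdown. Whether significance or depth accounts for the width was not tested. Peaks at small or structured RNA starts were the widest, at 1135.5 bp and 946 bp. H1-4, a linker histone gene, had a peak of 2485 bp after DHX9 knockdown and 1663 bp after U2AF1 knockdown, a U2 gene on chromosome 17 had 2191 and 1339 bp, and SRCAP, a chromatin remodeller, 1041 and 245 bp. The peak was wider after U2AF1 knockdown at TAF4, a subunit of the TFIID initiation complex (362 and 870 bp), at ZKSCAN2, a zinc finger gene (415 and 781 bp), and at the 5S ribosomal RNA gene RNA5S14 (641 and 1382 bp).

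Paired summits lay close together, which the pairing rule partly fixes. Paired peaks overlap by definition, so loci whose peaks lay farther apart are not among the pairs. The median distance between paired summits was 42 bp, 55.2% lay within 50 bp and 91.3% within 250 bp of each other. At 921 start site pairs assigned to the same gene, the DHX9 knockdown summit lay a median of 6 bp upstream along the direction of transcription (offset -6 bp, -10 to 0). The wider DHX9 knockdown peak reached a median of 44 bp farther upstream and 25 bp farther downstream. Among start site pairs with a −log10 q of at least 5 in both lists, the largest distances lay at repeated genes, 1402 and 1342 bp at ENSG00000275664 and ENSG00000274868, structured RNA genes on the short arm of chromosome 21, and 936 bp at RNA5S14.

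**Figure D4:**
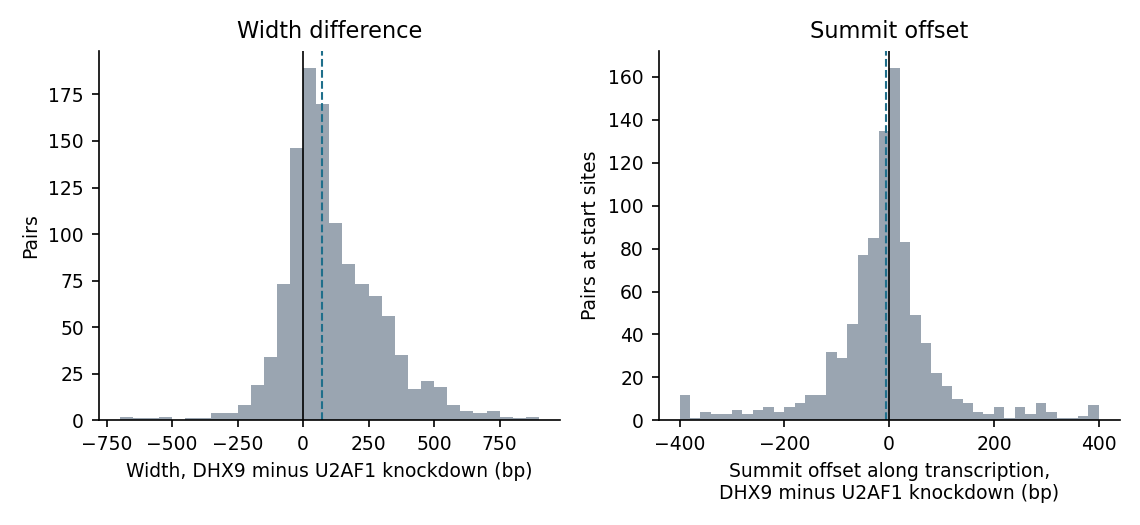
Number of pairs (y axes) by width difference (left, all 1159 pairs) and by summit offset along transcription (right, 921 pairs at start sites), both as DHX9 minus U2AF1 knockdown in bp, with values beyond the axis in the end bins. The dashed lines mark the medians, 73 bp and -6 bp.

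Among 20046 protein-coding genes 1083 (5.4 percent) had a start peak in both lists, 3118 (15.6 percent) in the DHX9 knockdown list alone and 249 (1.24 percent) in the U2AF1 knockdown list alone. With lists of equal length these were 685, 1007 and 647, so counts in 1 list alone turn on list length. A gene counted in both lists could have its peaks at different starts: for 62 of the 1083 the strongest start peaks of the 2 lists did not overlap. Gene lists are read against these percentages. They were chosen with results of these data known, and a promoter shared by 2 genes counts for both.

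Of 79 genes for cytosolic ribosomal proteins, which all growing cells transcribe, 18 had a start peak in both lists, 38 after DHX9 knockdown alone and 1, RPS15, after U2AF1 knockdown alone. With lists of equal length the counts were 16, 20 and 3. RPLP0 ranked 107 and 119, RPS2 112 and 177, and RPL5, found after DHX9 knockdown alone, ranked 200 with a fold enrichment of 10.1. Of the 18 pairs 11 stood at a higher percentile after DHX9 knockdown, and 9 did when ranked among pairs. Over the 857 pairs of all protein-coding genes 548 and 425 did. Of 62 replication-dependent histone genes, which are read out in S phase and make unspliced mRNA, 22 had a peak in both lists, 14 after DHX9 knockdown alone and 1, H2AC19, after U2AF1 knockdown alone, though its peak touched a broad DHX9 knockdown peak. Histone counts were 20, 3 and 3 with lists of equal length. The promoter of H2AC12 and H2BC12 had fold enrichments of 19.3 and 5.78 and widths of 1332 and 316 bp, and H3C15 had 18.7 and 8.51. All 15 histone pairs stood at a higher percentile after DHX9 knockdown, 10 of 15 when ranked among pairs, and their median width difference was 286 bp. Within 22 snoRNA host genes, whose introns carry small nucleolar RNAs, the counts were 10, 9 and 1, and 7, 7 and 4 with lists of equal length. NOP56 ranked 77 and 89, and SNHG7 78 and 22.

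Of all protein-coding genes with a start peak in either list, 24.3% had one in both. The same share was 27.3% for genes of 3′ splice site recognition, 30% for R-loop resolution and 38.1% for SR proteins and hnRNPs. Of 22 genes for 3′ splice site recognition 3 had a peak in both lists, 7 after DHX9 knockdown alone, led by SF1, the branch point protein, and SF3B4, of the U2 particle, and 1, PUF60, after U2AF1 knockdown alone. The peaks of U2SURP, one of the 3, lay 8 bp apart without overlap. At equal list length the counts were 0, 3 and 4. Of 31 genes for SR proteins and hnRNPs, which bind exons and nascent RNA, 8, 12 and 1 fell in the same order, and 8, 6 and 1 with lists of equal length. SRSF6 ranked 228 and 180 (percentiles 94.9 and 89.6) and SRSF7 248 and 122 (94.4 and 93.0). PTBP1, a repressor of exon inclusion, was found after DHX9 knockdown alone at rank 461. Of 22 genes for R-loop resolution 3 had a peak in both lists (DHX9, DDX5 and DDX21, all helicases) and 5 after DHX9 knockdown alone. Those 5 included RNASEH1, which cuts RNA in hybrids, at rank 469, and BRCA2, of DNA repair, at rank 557. After U2AF1 knockdown alone were found XRN2, a 5′ to 3′ exonuclease of termination, at rank 529 of 1730, and TOP1, topoisomerase I, at rank 595. With lists of equal length the counts of this group were 0, 3 and 5, the other way round. That cut removed weak peaks of the DHX9 knockdown list alone.

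Polymerase and its pausing factors came next. Of 12 genes for RNA polymerase II subunits 3 had a peak in both lists and 5 after DHX9 knockdown alone (2 and 0 with lists of equal length, and 1 after U2AF1 knockdown alone). POLR2L ranked 197 and 503 and POLR2C 3261 and 424. Of 26 genes for pausing and elongation 5 had a peak in both and 10 after DHX9 knockdown alone, led by CCNT1, the cyclin of the kinase P-TEFb, and NELFCD, of the pausing factor NELF. With lists of equal length 5 had a peak in both lists and 3 after DHX9 knockdown alone. HEXIM1, an inhibitor of P-TEFb, had fold enrichments of 12.01 and 5.19 (percentiles 97.3 and 61.8). SUPT4H1, of the elongation factor DSIF, stood at percentiles 91.6 and 66.6 and AFF4, of the super elongation complex, at 87.9 and 61.5. AFF1, another scaffold of that complex, stood at 70.1 and 87.5.

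Inducible genes were found in either list. Of 22 immediate early genes, which respond to growth signals and stress, 6 had a peak in both lists, 3 after DHX9 knockdown alone and 2 after U2AF1 knockdown alone. JUND ranked 104 and 50 (percentiles 97.7 and 97.2), ATF3 180 and 147 (96.0 and 91.6). IER5, with a fold enrichment of 13.6 at rank 95, was found after DHX9 knockdown alone, and CCN1 (rank 257 of 1730) and JUNB (rank 439) after U2AF1 knockdown alone. Of 21 heat shock chaperone genes HSPA5 had overlapping peaks in both lists, and HSP90AA1 had peaks at 2 different starts, 51911 bp apart. Another 11 had one after DHX9 knockdown alone, led by DNAJB1 and DNAJA1, and HSPD1 and HSPE1, which share 1 promoter, had theirs after U2AF1 knockdown alone. Chaperone counts were 1 in both, 4 after DHX9 knockdown alone and 3 after U2AF1 knockdown alone with lists of equal length. Of 17 glycolytic genes 6 had a peak in both lists, ALDOA at places 326 bp apart, and 4 after DHX9 knockdown alone. With lists of equal length these counts were 4 and 2, and 2 genes had one after U2AF1 knockdown alone. TPI1 ranked 102 and 56 (percentiles 97.7 and 96.8). Of 51 nuclear genes of oxidative phosphorylation 3 had a peak in both lists and 14 after DHX9 knockdown alone, and of 31 proteasome genes 2 and 8. No peak in either list was found for 66.7% and 67.7% of these, against 77.8% of all protein-coding genes. Of 18 RNA polymerase III genes with external promoters RPPH1 had a peak in both lists, at percentiles 27.3 and 21.3. RMRP (percentile 64.2) and RNU6-2 (44.7) had one after DHX9 knockdown alone. In all 16.7% had a start peak in either list, against 22.2% of protein-coding and 3.13% of small nuclear and nucleolar RNA genes. Whether these peaks belong to neighbouring genes was not tested.

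**Figure D5:**
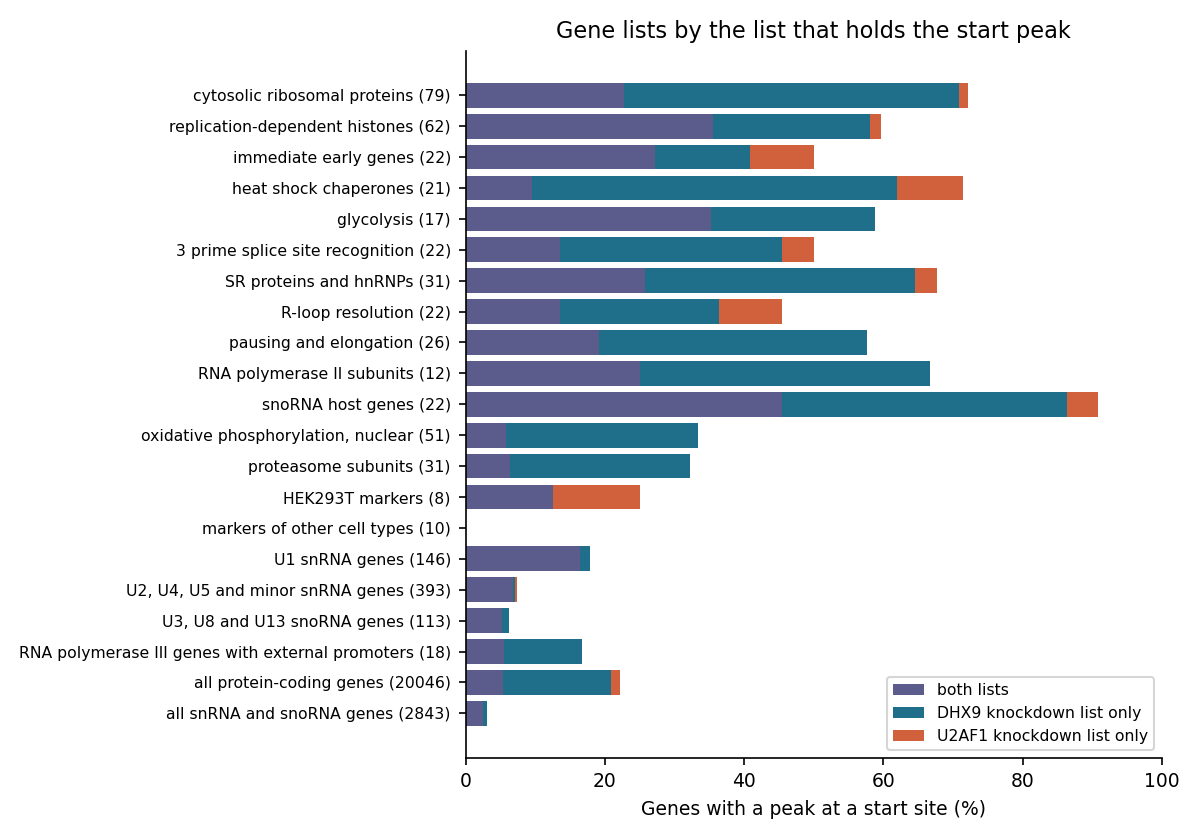
Percent of the genes of each list (x axis, number of genes in brackets) with a start peak in both knockdown lists, in the DHX9 knockdown list alone or in the U2AF1 knockdown list alone, above the same for all protein-coding and all small nuclear and nucleolar RNA genes. The protein-coding background is 5.4, 15.6 and 1.24 percent, and most of the U1 genes with a peak, 24 of 26, had one in both lists.

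The strongest unshared peaks lay mostly at start sites. After DHX9 knockdown they included SNORD13 (rank 70), IER5 (rank 95), YWHAG, a 14-3-3 protein (rank 123), an intron of the noncoding gene LINC02689 (rank 124) and LMO4, a transcriptional cofactor (rank 131). After U2AF1 knockdown they were RNASEH1P1, a processed pseudogene of RNASEH1 (fold enrichment 10.1, rank 80), the shared promoter of TBCCD1 and DNAJB11 (rank 123), a noncoding exon within ENSG00000275895 on the short arm of chromosome 21 (rank 134), FAM43A (rank 138), EXD3 with NOXA1 (rank 144) and SOCS1, an inhibitor of cytokine signalling (rank 164). A processed pseudogene carries the spliced sequence of its parent, so the origin of reads at RNASEH1P1 is uncertain. The gene start nearest to the chromosome 21 peak is that of ENSG00000276076, which is annotated as an artifact. Whether the reads of that peak belong elsewhere was not tested. The 150 bases before 4 of these starts and before 2 shared ones are printed to show what kind of promoter they are. Capitals mark 3 motifs searched on both strands, the TATA box (TATAAA), the CCAAT box (CCAAT) and the GC box (GGGCGG). They lie at chr1:181088550-181088699 (IER5, plus strand), chr7:76358992-76359141 (YWHAG, minus), chr3:194685733-194685882 (FAM43A, plus), chr16:11256201-11256350 (SOCS1, minus), chr20:35742313-35742462 (RBM39, minus) and chr6:26156179-26156328 (H1-4, plus).
IER5: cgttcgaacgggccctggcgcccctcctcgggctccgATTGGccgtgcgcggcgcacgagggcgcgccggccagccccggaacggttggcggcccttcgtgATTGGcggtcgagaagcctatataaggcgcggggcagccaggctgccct
YWHAG: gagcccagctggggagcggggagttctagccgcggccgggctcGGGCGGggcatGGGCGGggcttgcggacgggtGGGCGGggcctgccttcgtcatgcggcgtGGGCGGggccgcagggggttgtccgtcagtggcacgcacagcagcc
FAM43A: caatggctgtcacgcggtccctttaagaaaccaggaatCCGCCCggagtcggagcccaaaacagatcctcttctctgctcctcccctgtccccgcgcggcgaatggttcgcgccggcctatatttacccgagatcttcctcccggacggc
SOCS1: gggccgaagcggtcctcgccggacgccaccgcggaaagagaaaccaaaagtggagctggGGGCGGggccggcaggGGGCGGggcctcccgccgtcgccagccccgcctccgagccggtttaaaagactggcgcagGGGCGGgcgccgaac
RBM39: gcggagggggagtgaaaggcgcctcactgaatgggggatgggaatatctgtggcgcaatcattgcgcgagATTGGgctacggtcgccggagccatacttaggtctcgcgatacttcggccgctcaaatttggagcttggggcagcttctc
H1-4: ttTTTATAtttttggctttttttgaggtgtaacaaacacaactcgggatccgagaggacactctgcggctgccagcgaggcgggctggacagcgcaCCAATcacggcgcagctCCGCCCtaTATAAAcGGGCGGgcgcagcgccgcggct
By exact match H1-4 held all 3 motifs, YWHAG, FAM43A and SOCS1 the GC box alone, and IER5 and RBM39 the CCAAT box alone. Similar runs, such as TATATAAG before the start of IER5, were not counted. In the 200 bp around summits at start sites the TATA box was found in 5.54% of shared (4.29 to 7.12, 56 of 1011) and 1.43% of unshared (1.06 to 1.93, 42 of 2932) DHX9 knockdown peaks, and in 5.40% (55 of 1019) and 1.10% (3 of 273) of U2AF1 knockdown peaks. Without histone and small or structured RNA genes the shares were 5.51%, 1.44%, 5.31% and 1.13%. Around all protein-coding gene starts 7.05% of such windows held it. The GC box was found in 62.5% of shared and 64.5% of unshared DHX9 knockdown start peaks and in 60.0% and 62.3% of those of U2AF1 knockdown, against 46.9% around all protein-coding starts. For the CCAAT box these shares were 8.61%, 10.1%, 8.73% and 5.49%, against 25.9% around all protein-coding starts.

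At the genes of the study itself, each list recorded polymerase at the start of the targeted gene, which measures neither its RNA nor its protein. U2AF1 (chromosome 21, minus strand) had a paired start peak at percentile 27.3 after DHX9 knockdown and 35.9 after U2AF1 knockdown. A further peak over a coding exon of U2AF1, at percentile 74.5, was in the U2AF1 knockdown list alone. Whether the reads of this exon peak could have another origin was not tested. DHX9 (chromosome 1, plus strand) had a start peak at percentile 36.2 after its own knockdown and 78.9 after U2AF1 knockdown. POLR2A, the gene of the protein profiled (chromosome 17, plus strand), stood at 98.7 and 92.7, with fold enrichments of 19.6 and 8.43. Among peaks over coding exons away from starts, HNRNPA0, a gene without introns, ranked 56 after DHX9 knockdown and 55 after U2AF1 knockdown. These ranks are percentiles 98.8 and 96.9.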

How the data were processed

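Per the submitters' processing notes, Bowtie2 2.4.5, MACS2 2.2.7.1, deepTools 3.5.1 and hg38 were used; their settings, the use of the inputs and whether peaks were called on 1 or both replicates are not given in the sources used here. The authors deposited peak lists with, for each peak, a start, an end and a summit in bp, a fold enrichment (a ratio), −log10 of p and of q, and an integer score, which was not used. Depth is unknown from these lists. All sequence names and ends fitted GRCh38, and GENCODE version 44 gave gene positions. Overlaps, pairs, percentiles and locations were computed with pandas 2.3.3, numpy 2.4.6 and pysam 0.24.0, and tested on simulated peaks. Percentiles are ranks of fold enrichment within a list. The control list was not used. Members and gene lists were chosen with earlier results of these data known.

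Genes named are the 6 pairs highest in both lists, the 6 pairs with the largest percentile gap each way and the 3 start site pairs with the largest width gap each way or summit distance (all with −log10 q of at least 5), the 6 highest unshared peaks of each list, the loci of U2AF1, DHX9 and POLR2A, and the highest members of each gene list. One gene that this rule selects is not reported here. HNRNPA0, POLR2C and AFF1 were named after their values were seen. Repeat-masked shares could not be computed, because the reference sequence used is in upper case throughout.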

Additional observations from a re-analysis of the deposited data

How the results depend on the processing

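Among the main results recomputed under each alternative, 65 values stayed close to the reported value (within its interval, or within 1.5 times for a count), 54 moved and 2 changed sign. Both were the median percentile difference, with lists of equal length (-2.23) and with paired peaks alone ranked, where the value is centred near 0 by construction and its interval spans 0 (-0.0864, -0.777 to 0.345). It was 8.97 ranked by −log10 p. With lists of equal length there were 752 pairs, overlap shares of 45.03% (U2AF1 knockdown) and 44.3% (DHX9 knockdown), 86 pairs higher after DHX9 knockdown, a width difference of 102 bp and a summit distance of 32 bp. Start site shares were then 92.6% of shared peaks in either list (92.65 and 92.60), 96.4% of unshared DHX9 and 68.4% of unshared U2AF1 knockdown peaks. Gene body shares were 2.91% (DHX9 shared), 1.37% (DHX9 unshared) and 14.6% (U2AF1 unshared), and genes with a start peak in both, DHX9 alone and U2AF1 alone 685, 1007 and 647. With −log10 q of at least 5 in both lists there were 729 pairs, a U2AF1 knockdown share of 72.6%, a rho of 0.679, 76 pairs higher after U2AF1 knockdown, a summit distance of 32 bp, start site shares of 95.3% and 64.8% and gene body shares of 1.94% and 13.03% (unshared DHX9 and U2AF1), and 626 genes in both and 159 in U2AF1 alone. Other overlap rules gave U2AF1 knockdown shares of 66.5% (50% of the shorter peak covered) and 62.4% (summits within 250 bp, DHX9 knockdown 24.3%). Spearman's coefficient across pairs was 0.598 when peaks were ordered by −log10 p. A 500 bp start window gave start site shares of 86.6% (DHX9 shared), 89.7% (DHX9 unshared) and 87.3% (U2AF1 shared) and gene body shares of 5.98%, 5.51% and 5.33%. A 2000 bp window gave 91.9% and 92.9% at starts for shared and unshared DHX9 knockdown peaks and 3.35% of the unshared in gene bodies. Protein-coding genes alone gave start site shares of 78.9% (DHX9 shared, 78.95), 87.2% (DHX9 unshared), 78.9% (U2AF1 shared, 78.93) and 48.5% (U2AF1 unshared), and gene body shares of 3.44% and 14.5% for the unshared. For 2 alternatives chosen after seeing the data, peaks with −log10 q of at least 5 against the whole other list gave overlap shares of 81.3% (U2AF1) and 35.1% (DHX9), 95.6% of unshared DHX9 knockdown peaks at starts and 1.93% in gene bodies, and 15.3% of unshared U2AF1 knockdown peaks in gene bodies. Without small RNA genes, pseudogenes and unannotated sequence rho was 0.461 and the median difference 4.67. The causes were not tested. Of the values recomputed for gene lists and named pairs 204 stayed close, 68 moved and none changed sign.

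No paired analysis was possible because the labels name 1 list for the 2 replicates of a knockdown, so leaving out a replicate was not run either. Depth is unknown: a peak missing from a list was not called there and need not lack polymerase.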
